A study of Mus musculus with 6 samples.

Results

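Amino acid transporters carry the building blocks of globin and the glycine of haem into developing red cells, and 10 of their genes were followed here in the mouse fetal liver. The genes are Slc38a5, Slc38a2, Slc38a1, Slc1a5, Slc6a9, Slc7a5, Slc3a2, Slc43a1, Slc7a1 and Slc7a11, and all 10 were found by symbol among the 26014 genes of the deposited table. The set was chosen on the fall of Slc38a5 in knockout libraries. The levels of Slc38a5 in the groups are therefore given as a description with no test, and shares of the set that differ between the groups are not read as a result about it. The other 9 genes joined it as carriers of neutral, large neutral and cationic amino acids, of glycine and of cystine.

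RNA came from livers of mouse embryos at embryonic day 14.5, an age at which most red cells are made there. Untreated wild-type embryos gave 3 libraries (WT), and 3 more (KO) came from untreated embryos in which the 3′ UTR of Gata1, the stretch of its messenger after the stop codon, was knocked out. The sources used here give no strain, no extent of the deletion and no number of embryos per library. Since separate embryos are not stated, the p-values reflect how much these samples vary, which may be technical. Values are FPKM, fragments scaled to exon length and to the fragments of the library, so that genes of different length can be set side by side.

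Libraries held about 14800000 to 16200000 fragments, estimated from the steps of low FPKM values, and 3 fragments on 1 kb of exon corresponded to 0.185 to 0.203 FPKM, a limit that covers counting error only. Gata1, whose product drives erythroid genes, had 142.9, 141.8 and 165.8 FPKM in WT and 67.2, 67.7 and 68.2 FPKM in KO, values that also count any fragments of the targeted 3′ UTR. The labels call the cells embryonic hepatocytes, but the summed level of 10 erythroid markers was 5743 to 6405 FPKM in WT and 4566 to 4938 FPKM in KO, against 404.8 to 2397 and 1053 to 1438 FPKM for 10 hepatoblast markers. None of the markers of the 9 cell types examined was at 0 in every library. The second WT library had the highest level of Alb, the liver albumin gene, at 963.7 FPKM, where the other WT libraries had 353.7 and 148.6 FPKM and the KO libraries 392.9 to 523.1 FPKM. Xist, expressed in female cells, was at 0.0188 to 0.0426 FPKM, and 4 Y-linked genes were above 0 in all 6 libraries.

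As background, cells take up amino acids through carriers that differ in substrate and driving force. SLC38 proteins couple small neutral amino acids to sodium, SLC1A5 exchanges neutral amino acids such as glutamine, and SLC6A9 brings in glycine, which the enzyme ALAS2 joins to succinyl-CoA in the opening step of haem synthesis. SLC7A5 and SLC7A11 are light chains that reach the membrane only with the heavy chain encoded by Slc3a2, known as CD98, whereas SLC43A1 moves leucine and its relatives without a partner. When amino acids run short, the kinase GCN2 raises translation of ATF4, a factor that binds amino acid response elements in carrier genes, and the lysosomal Rag GTPases release mTORC1.

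Start sites of 7 of the 10 genes had a promoter window in RefSeq (GRCm38.p6, 250 bases before to 50 after the start). The windows of Slc38a5 and Slc7a11 are shown because these genes had the widest relative gaps between the groups and were the members whose window held a motif that was searched. Both strands were searched for the GATA words AGATAA and TGATAA and for their forms ending in G, AGATAG and TGATAG, which occur in 29.8% of all 32851 windows, and for the ATF4 element TGATGNAA, which occurs in 3.97% of them. Capitals mark the match in 30 bases, 5′ to 3′ on the strand of the gene.
Slc38a5, GATA word centred 17 bases after the start, chrX:8271383-8271412 on the plus strand: ggtgggggcgggAGATAGggactgaaagag
Slc7a11, ATF4 element centred 62 bases before the start, chr3:50443661-50443690 on the minus strand: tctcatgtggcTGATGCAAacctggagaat
Slc7a11, ATF4 element on the opposite strand centred 43 bases before the start, chr3:50443642-50443671: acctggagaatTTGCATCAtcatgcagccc
Slc7a11, GATA word centred 44 bases after the start, chr3:50443564-50443593: ggaagctgagctggtgtgtaaTGATAGggc
In the windows of Slc38a2, Slc6a9, Slc3a2, Slc43a1 and Slc7a1 there was no match to either motif. The starts are those of RefSeq. The start used for Slc38a5 lies downstream of its gene start at 8271133, so its GATA word falls inside the gene. These matches describe letters and were not linked to binding in these cells.

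Among the sodium-coupled and exchange carriers of small neutral amino acids, Slc38a5 was the gene with the lowest KO level relative to WT. It encodes SNAT5, a carrier of glutamine, asparagine, histidine and serine that exchanges them with sodium against protons and can run in both directions. Its level was 58.5, 63.3 and 77.2 FPKM in the WT libraries and 19.8, 21.7 and 20.2 FPKM in the KO libraries. All KO libraries lay far below all WT libraries, and the WT libraries were also more spread out. WT had a mean of 66.3 ± 9.71 FPKM and KO one of 20.5 ± 1.01 FPKM (SD, n = 3 each), so that KO held 31.0% of the WT level. On the log2(FPKM + 1) scale the difference was -1.64 with a standard error of 0.10, and it ran from -1.73 to -1.52 over the 15 alternative fits. Behind these values stood 1941, 2297 and 2758 recovered fragments in WT and 714, 764 and 706 in KO. In the order of log2 ratios of the 11142 genes with a mean of at least 1 FPKM, Slc38a5 stood at place 17 from the lowest. The gene (ENSMUSG00000031170) lies on the plus strand of chromosome X from 8271133 to 8280179 (all gene positions as in GRCm38).

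The 10 erythroid markers were lower in KO as well, with log2 ratios of -1.13 to -0.07 and a median of -0.35. Of these 10 markers 8 passed the test as lower, where 3.62% of all tested genes did. Their part in the level of Slc38a5 was not tested. In bulk tissue, fewer cells of a type and less RNA per cell cannot be told apart.

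Slc38a2 encodes SNAT2, the system A carrier of alanine, serine and glutamine that cells induce when amino acids are scarce. Its level was 29.7, 31.0 and 28.9 FPKM in WT and 36.2, 36.1 and 39.3 FPKM in KO. Every KO library was above every WT library. Slc38a2 rose by a log2 ratio of 0.31 with a standard error of 0.056 (adjusted p = 0.0235 over all 11142 genes, limma). The call was kept in 8 of 15 alternative fits and, when each of the 6 libraries was left out in turn, in 1, the one without WT replicate 2, and its adjusted p (limma) reached 0.150 with non-globin scaling. The gene (ENSMUSG00000022462) lies on the minus strand of chromosome 15 from 96687394 to 96699698. In 3 WT libraries Slc38a2 was at 0.507, 0.489 and 0.375 of the level of Slc38a5, and in KO it was at 1.83, 1.67 and 1.95 times that level. Of these SLC38 genes, the one with the higher FPKM was thus Slc38a5 in each WT library and Slc38a2 in each KO library.

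Slc38a1, its neighbour on chromosome 15 (96571418 to 96642913, minus strand), encodes SNAT1, another system A carrier. It had 13.0, 14.0 and 12.0 FPKM in WT and 14.5, 13.8 and 13.7 FPKM in KO. The groups overlapped, and the log2 ratio of 0.10 with a standard error of 0.068 did not pass the test (adjusted p = 0.375, limma). Slc1a5, the gene of the glutamine exchanger ASCT2, had the highest mean FPKM of the 10 in both groups. It had 184.9, 153.0 and 177.6 FPKM in WT and 129.4, 136.8 and 147.2 FPKM in KO. The groups did not overlap, and the log2 ratio was -0.31 with a standard error of 0.086 (adjusted p = 0.0652, limma). Slc1a5 thus missed the threshold here, while its adjusted p (limma) was 0.0429 with library weights, 0.0474 with voom on recovered fragments and 0.0315 without WT replicate 2. It lies on the plus strand of chromosome 7 from 16781340 to 16798274.

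Slc6a9 encodes GLYT1, the glycine importer that supplies haem synthesis in red cell precursors. Its level was 44.5, 33.6 and 43.4 FPKM in WT and 36.4, 39.5 and 40.5 FPKM in KO. The second WT library was the lowest of the 6, the other WT libraries were the highest, and KO lay between them. The log2 ratio was -0.05 with a standard error of 0.11 (adjusted p = 0.782, limma), and its sign turned with TPM scaling and without WT replicate 1 or WT replicate 3. The gene spans 117834506 to 117875198 on the plus strand of chromosome 4 and overlaps Ccdc24, B4galt2 and Gm17114 on the other strand. Whether counting used strand is not stated in those sources, so fragments of these genes may not be separable there.

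**Figure D1:**
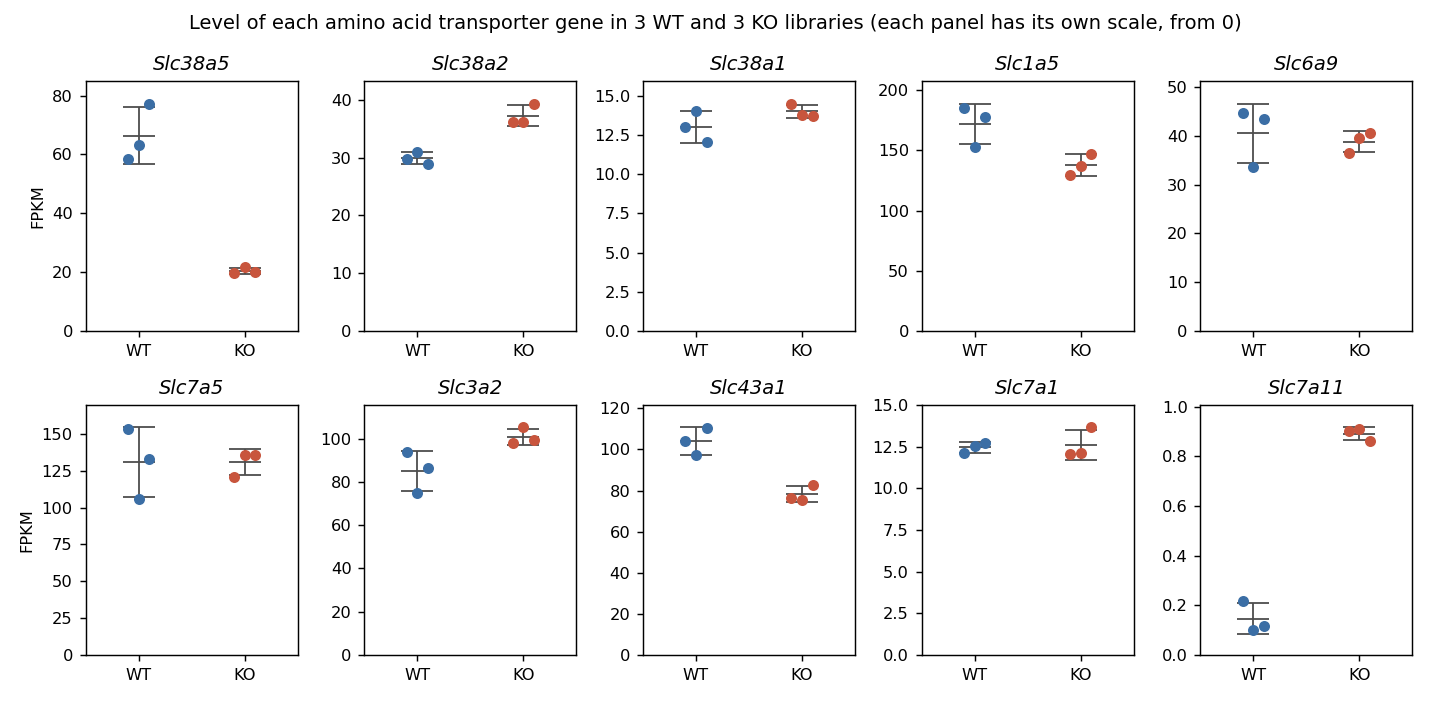
FPKM of each of the 10 transporter genes in 3 WT (blue) and 3 KO (red) libraries; points are libraries, the horizontal bars mean and SD, and each panel has its own scale from 0. The groups do not overlap for Slc38a5, Slc38a2, Slc1a5, Slc3a2, Slc43a1 and Slc7a11, and they overlap for the other 4 genes.

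Of 3 genes for carriers of leucine and other large neutral amino acids, 1 fell and 2 did not pass the test. Slc7a5, the gene of the light chain LAT1, had 153.2, 105.9 and 132.9 FPKM in WT and 120.6, 136.0 and 136.0 FPKM in KO. Both the highest and the lowest library were WT, and the group means of 130.7 ± 23.7 and 130.9 ± 8.86 FPKM lay within this spread (SD, n = 3 each). The log2 ratio was 0.02 with a standard error of 0.13 (adjusted p = 0.948, limma), with a sign that changed between alternatives, median-of-ratios scaling among them. Slc7a5 lies on the minus strand of chromosome 8 from 121881150 to 121907694, inside the span of Gm20388 on the other strand.

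Slc3a2 encodes the CD98 heavy chain, the partner that LAT1 and the cystine carrier share. It had 93.7, 75.1 and 86.6 FPKM in WT and 97.9, 105.2 and 99.2 FPKM in KO. The KO libraries were above the WT libraries without overlap, and the log2 ratio of 0.25 with a standard error of 0.085 did not pass (adjusted p = 0.113, limma), except with TPM scaling (adjusted p = 0.0469). Within each library the ratio of light to heavy chain messenger, Slc7a5 to Slc3a2, was 1.63, 1.41 and 1.53 in WT and 1.23, 1.29 and 1.37 in KO. These ratios did not overlap between the groups. Their size depends on the exon length used. Merged exons cover 3708 bases for Slc7a5 and 3529 for Slc3a2, whereas their principal transcripts have 3517 and 1819 bases. Ratios above 1 are therefore not read as an excess of light chain messenger. Slc3a2 lies on the minus strand of chromosome 19 from 8706882 to 8723369.

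Slc43a1, the gene of LAT3, a carrier of leucine and phenylalanine that works without a heavy chain, fell in KO. Its level was 104.1, 97.1 and 110.6 FPKM in WT and 76.5, 75.5 and 82.8 FPKM in KO. No KO library reached the lowest WT library. The means were 103.9 ± 6.77 and 78.3 ± 3.97 FPKM (SD, n = 3 each), with a log2 ratio of -0.40 and a standard error of 0.066 (adjusted p = 0.0169, limma). The call was kept in 11 of 15 alternative fits, and it was lost when columns were scaled to TPM or without globin genes (adjusted p = 0.118 and 0.154, limma) and without KO replicate 1 or KO replicate 2 (0.0806 and 0.0862). The size of the change, -0.40, was close to the median of -0.35 over the erythroid markers, which moved in the same direction, and the part of these markers in it was not tested. Slc43a1 lies on the plus strand of chromosome 2 from 84838850 to 84863594.

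Slc7a1 encodes CAT1, the importer of arginine and lysine. Its level was 12.1, 12.5 and 12.7 FPKM in WT and 12.0, 12.1 and 13.7 FPKM in KO. The WT range lay inside the KO range. The log2 ratio was 0.01 with a standard error of 0.065 (adjusted p = 0.914, limma), and its sign turned in 4 of the alternatives, median-of-ratios scaling among them. Slc7a1 lies on the minus strand of chromosome 5 from 148327410 to 148399904.

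Slc7a11 encodes xCT, which exchanges glutamate for cystine, the source of cysteine for glutathione, and was the member with the lowest level. It had 0.218, 0.102 and 0.117 FPKM in WT and 0.903, 0.909 and 0.864 FPKM in KO. Every KO library was several times as high as the highest WT library, although all values stayed under 1 FPKM. The means were 0.146 ± 0.0631 and 0.892 ± 0.0245 FPKM (SD, n = 3 each), a ratio of 6.12, from 45, 23 and 26 recovered fragments in WT and 203, 199 and 188 in KO. The gene was therefore left out by the filter of the main test. Without the filter its log2 ratio on the FPKM + 1 scale, which understates changes of low genes, was 0.72 (limma, adjusted p = 0.0137, where 1.03% of all 26014 genes were higher in KO). In voom on genes with at least 10 fragments, added after the data were examined, Slc7a11 was higher in KO by 2.69 ± 0.24 on the log2 scale (SE; adjusted p = 0.000874 by limma, where 5.96% of genes were higher in KO).

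Slc7a11 spans 49892526 to 50443614 on the minus strand of chromosome 3. The merged exons of the gene cover 13922 bases, whereas its principal transcript has 9223 bases. The span also holds Gm37498 and Gm37692 on the same strand and Gm37854, Gm37826 and Gm2345 on the other, so some fragments may belong to these. Megakaryocyte and platelet markers rose in the same libraries, with a summed level of 219 to 435.1 FPKM in WT and 477.3 to 863.7 FPKM in KO. Of 10 such markers 7 passed as higher, where 5.93% of all tested genes did. Stellate and mesenchymal markers had 3.73 to 6.64 FPKM in WT and 9.92 to 19.2 FPKM in KO, with 1 of 4 tested markers, Reln, passing. Without Reln their sums overlapped, at 2.66 to 4.76 FPKM in WT and 4.45 to 13.0 FPKM in KO. The part of these cells in the level of Slc7a11 was not tested.

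In all, 9 of the 10 genes passed the filter on low values. Leaving out Slc38a5, which chose the set, 1 of the other 8 tested members passed the test as higher in KO, 1 as lower and 6 did not pass. Over all tested genes 5.93% were higher, 3.62% lower and 9.55% changed in either direction, and the median log2 ratio was 0.09. The median of these 8 members was 0.01. The groups did not overlap for 4 of the 8, against 35.6% of all tested genes. The WT to KO contrast had been seen when the set was drawn up, so these counts describe it and test nothing.

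Per base of merged exons, the order of levels from the top in WT was Slc1a5, Slc7a5, Slc43a1, Slc3a2, Slc38a5, Slc6a9, Slc38a2, Slc38a1, Slc7a1 and Slc7a11. Neighbours whose WT libraries overlapped were Slc1a5 with Slc7a5, Slc7a5 with Slc43a1, Slc3a2 with Slc38a5, and Slc38a1 with Slc7a1. In KO the order was Slc1a5, Slc7a5, Slc3a2, Slc43a1, Slc6a9, Slc38a2, Slc38a5, Slc38a1, Slc7a1 and Slc7a11. There the neighbours that overlapped were Slc1a5 with Slc7a5 and Slc6a9 with Slc38a2. Slc38a5 thus went from place 5 to place 7, behind Slc6a9 and Slc38a2, and Slc3a2 passed Slc43a1. Another choice of length could change these orders. Merged exons exceed the principal transcript unequally, with 5716 against 2487 bases for Slc43a1 and 3708 against 3517 for Slc7a5.

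The summed FPKM of the 10 genes was 653.9 ± 59.5 in WT and 571.8 ± 25.2 in KO, and 587.6 ± 58.6 and 551.2 ± 24.8 without Slc38a5 (SD, n = 3 each). Slc38a5 made up 8.43%, 10.8% and 11.3% of this sum in WT and 3.63%, 3.75% and 3.40% in KO. Its mean share was 10.2 ± 1.54% in WT and 3.59 ± 0.179% in KO, a difference of -6.59 percentage points. The CD98 heavy chain gene Slc3a2 took 13.0 ± 0.433% in WT and 17.6 ± 0.805% in KO. Slc38a2 took 4.60 ± 0.595% and 6.51 ± 0.224%, and Slc7a5 took 19.9 ± 2.02% and 22.9 ± 0.688%. Slc43a1 went the other way with 15.9 ± 0.827% and 13.7 ± 0.539%, as did Slc1a5 with 26.3 ± 0.328% and 24.1 ± 0.626% (SD, n = 3 each). Shares add up to a whole, so a lower share of Slc38a5 raises the others.

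**Figure D2:**
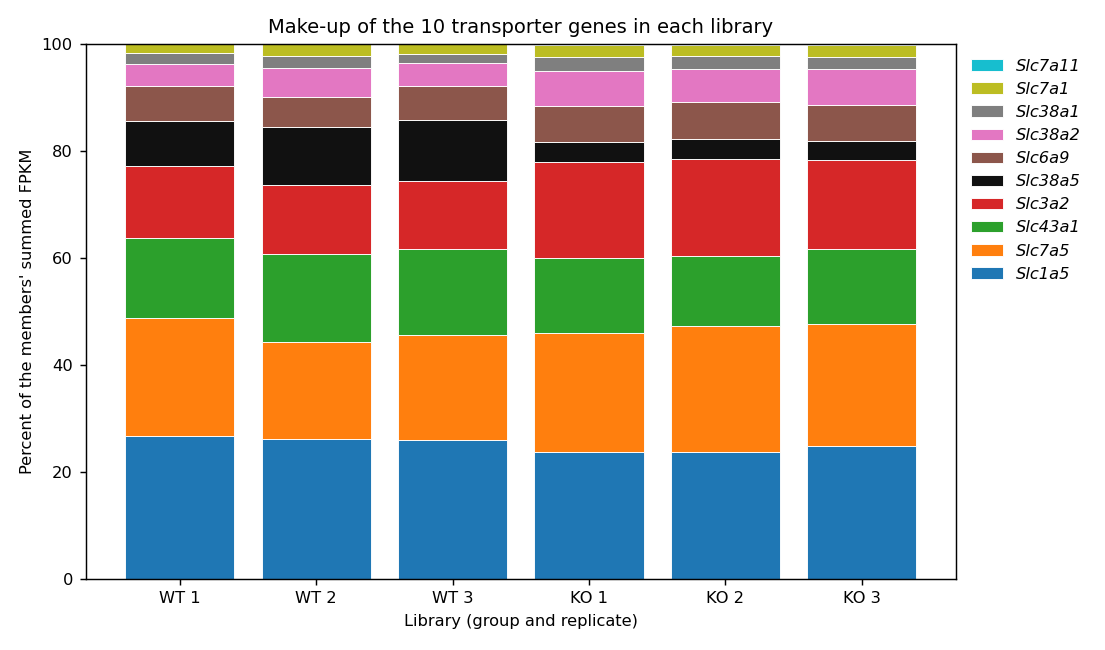
Share of each gene in the summed FPKM of the 10 transporter genes, in percent, for each WT and KO library (stacked bars from 0 to 100). The black band of Slc38a5 takes 8.43% to 11.3% in WT and 3.40% to 3.75% in KO, and the red band of Slc3a2 is wider in the KO libraries.

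Slc38a5 and Gata1 lie on the same stretch of chromosome X, 293.1 kb apart. The table held 30 other genes within 500 kb of Slc38a5, of which 18 were tested, all of them on the side of Gata1. Besides Gata1 itself, which fell, 1 gene passed, and this was Was, the gene of the Wiskott-Aldrich syndrome protein of blood cells, with a log2 ratio of 0.47 (adjusted p = 0.0378, limma), a call that held in 1 of 6 leave-one-out fits. Ftsj1, a gene of a tRNA methyltransferase 18.7 kb from Slc38a5, had the lowest value after Gata1 at -0.36 and did not pass (adjusted p = 0.0874, limma). The median over the 18 neighbours was 0.09, the same as over all tested genes to this precision. No tested neighbour other than Gata1 thus came near the value of Slc38a5. Psmb6-ps, a processed pseudogene 320.3 kb from Slc38a5, was under the filter. It had 0, 0.0865 and 0 FPKM in WT and 0.608, 0.981 and 0.718 FPKM in KO, without overlap. With no filter its log2 ratio was 0.78 (limma, adjusted p = 0.0212, where 1.03% of all 26014 genes were higher in KO).

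**Figure D3:**
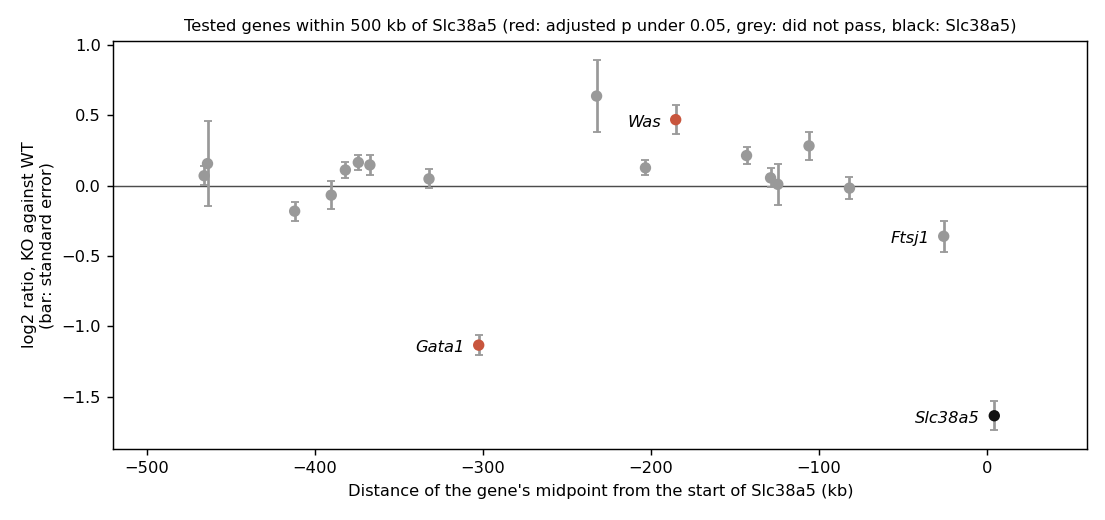
Log2 ratio of KO against WT, with its standard error, of tested genes by the distance of their midpoint from the start of Slc38a5 in kb. Slc38a5 at -1.64 and Gata1 at -1.13 stand alone among the tested genes, and the other tested neighbours lie between -0.36 and 0.64.

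Genes whose levels followed Slc38a5 most closely over the 6 libraries were named by Pearson correlation of log2(FPKM + 1), a description of libraries that fall into 2 groups. The 5 highest were Gata1 with 0.998, Naprt with 0.996, Aqp8 with 0.996, Sec61g with 0.995 and Arhgef40 with 0.995, and 470 of 11141 genes reached 0.9. With the group means taken off, so that only the spread among libraries of a group counts, the 5 highest were Abracl with 0.996, Gm7536 with 0.992, Pot1a with 0.991, Pi4ka with 0.990 and Rps12-ps3 with 0.989. By this measure 226 genes reached 0.9, and Gata1 stood at place 204 with 0.905. The members differed from one another by the same measures. Slc43a1 had 0.957 over all libraries and 0.424 with group means off, Slc1a5 had 0.842 and 0.06, and Slc38a2 had -0.963 and -0.41.

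Other amino acid transporters were listed by the membrane they serve. Of 36 further plasma membrane carriers, 8 reached a mean of 1 FPKM, and of these 8 genes 2 rose and none fell (median log2 ratio 0.12). Among all tested genes 5.93% rose and 3.62% fell, with a median of 0.09. Slc1a4 encodes ASCT1, an exchanger of alanine, serine and cysteine related to SLC1A5. It rose from 4.80 ± 0.566 to 6.98 ± 0.251 FPKM (SD, n = 3 each), a log2 ratio of 0.46 (adjusted p = 0.0257, limma). The call of Slc1a4 held in 3 of 6 leave-one-out fits, and limma with no filter gave an adjusted p of 0.0629. Slc6a6, the taurine transporter gene, rose from 6.39 ± 0.632 to 8.26 ± 0.271 FPKM, a log2 ratio of 0.33 (adjusted p = 0.0481, limma), and this call was lost whichever library was left out. Slc16a10, an aromatic amino acid carrier, was the most abundant of these genes, and its means were 61.8 ± 1.20 FPKM for WT and 61.6 ± 2.32 FPKM for KO (n = 3 each). The other members with the smallest p, Slc7a6 and Slc7a7, light chains that exchange cationic for neutral amino acids, had log2 ratios of 0.30 and 0.18 and did not pass (adjusted p = 0.184 and 0.483, limma). Carriers under a mean of 1 FPKM were tested with voom on genes with at least 10 fragments, as for Slc7a11. Of 11 such genes among the plasma membrane, lysosomal and mitochondrial lists none was higher in KO and 1 was lower, where 3.41% of all genes were lower. This was Slc6a20a, which encodes a proline carrier of the plasma membrane, with 1.16, 0.997 and 1.98 FPKM in WT and 0.303, 0.467 and 0.626 FPKM in KO. KO held 33.8% of the WT level, the groups did not overlap, and the log2 ratio was -1.55 ± 0.36 (SE; adjusted p = 0.0356 by limma), whereas limma with no filter gave an adjusted p of 0.138. Slc38a4, a liver system A carrier, ranged from 0.730 to 5.48 FPKM within WT, and its highest library was the second WT library, the one with the most Alb.

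Carriers listed as lysosomal counted 9 tested genes of the 11 found. Against 3.62% of all tested genes that fell, 1 fell here and none rose (median 0.04). This was Slc38a9, a carrier that reports lysosomal arginine to mTORC1, with 5.78, 5.51 and 5.46 FPKM in WT and 3.59, 3.81 and 4.19 FPKM in KO. The groups were far apart, at a log2 ratio of -0.44 ± 0.073 (SE; adjusted p = 0.0178, limma). The call was kept in 10 of its 14 alternative fits. Slc38a10, Ctns, the cystine exporter gene, and Slc36a1, a proton-coupled carrier gene, did not pass (limma, adjusted p = 0.171, 0.243 and 0.544). In mitochondria, none of 10 tested carriers out of 13 passed (median 0.06). The lowest value there was that of Slc25a38, the importer of glycine for haem synthesis, at 99.1 ± 8.51 FPKM in WT and 86.0 ± 7.28 FPKM in KO, with overlapping groups and a log2 ratio of -0.20 (adjusted p = 0.173, limma). Sfxn3, a gene of the sideroflexin family of serine carriers, was at 0.35 (adjusted p = 0.0713, limma). Slc25a22 and Slc25a12, genes of glutamate and aspartate carriers, did not pass either (limma, adjusted p = 0.189 and 0.221).

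Together 3 of 27 tested other amino acid transporters were called, or 11.1%, against 14.2% of 162 tested genes of all other solute carriers and 9.55% of all tested genes. Among those solute carriers, looked up after their values were seen, the lowest log2 ratio was -1.66, of Slc4a5, a bicarbonate carrier gene, and the highest 1.32, of Slc35d3. Slc38a5 at -1.64 was thus next to the lowest end of the whole family.

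**Figure D4:**
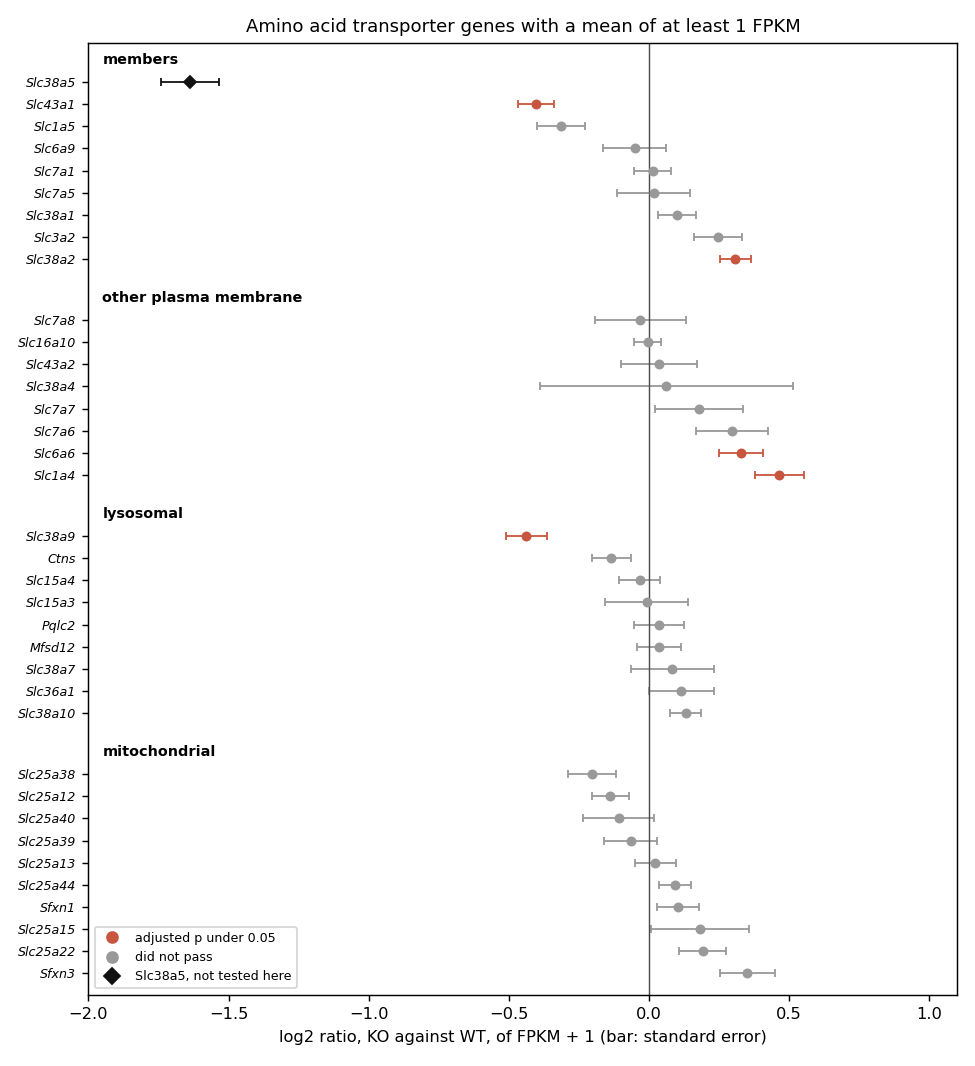
Log2 ratio of KO against WT on FPKM + 1, with its standard error, for members and other amino acid transporters with a mean of at least 1 FPKM; red marks an adjusted p under 0.05 (limma) and black Slc38a5, which chose the set. Slc38a5 lies at -1.64 and the other genes drawn lie between -0.44 and 0.46, while carriers under that mean, such as Slc6a20a, are not drawn.

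Genes that make, sense and spend amino acids were then set beside the carriers. All 21 listed enzymes of amino acid synthesis and glutamine use were tested. Where 5.93% of all tested genes rose and 3.62% fell, 1 of these enzymes rose and none fell, with a median of 0.22. The gene that rose was Psph, the phosphatase that ends serine synthesis, from 6.91 ± 0.911 to 10.9 ± 1.42 FPKM (SD, n = 3 each) with a log2 ratio of 0.59 (adjusted p = 0.0306, limma), and its call held in 1 of 6 leave-one-out fits. Next in order were Glul, the glutamine synthetase gene, Shmt2, which interconverts serine and glycine in mitochondria, and Got2, an aspartate aminotransferase gene. They had 0.24, 0.31 and 0.21 and did not pass (limma, adjusted p = 0.0535, 0.077 and 0.102).

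Of 13 tested genes of the ATF4 amino acid response, 3 rose and 1 fell (median 0.29). These calls were 30.8% of the tested list, against 9.55% of all tested genes, whose median was 0.09. Atf4 itself had 238.0 ± 15.2 FPKM in WT and 248.9 ± 6.26 FPKM in KO with overlapping groups (adjusted p = 0.494, limma). Trib3, a pseudokinase gene, had 5.17, 2.58 and 4.37 FPKM in WT and 7.54, 7.60 and 7.52 FPKM in KO. It rose by a log2 ratio of 0.80 (adjusted p = 0.0462, limma), a call that held in 2 of the 6 leave-one-out fits. Sesn2, which encodes a leucine-binding inhibitor of mTORC1, rose from 7.11 ± 0.228 to 9.55 ± 0.176 FPKM (limma, log2 ratio 0.38, adjusted p = 0.0125). Eif4ebp1, the gene of a brake on translation that mTORC1 releases, rose by 0.47 (adjusted p = 0.0334, limma), which held in 1 of those 6 fits. Ppp1r15a, which encodes the phosphatase subunit that ends the response, fell by 0.32 (adjusted p = 0.0455, limma), also kept in 1 of 6. Genes of the list thus moved in both directions.

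The list of mTORC1 and its amino acid sensors held 33 tested genes, of which 5 rose and 3 fell (median 0.08). Calls made up 24.2% of these genes, against 9.55% of all tested genes, whose median was 0.09. Rragd encodes RagD, a GTPase that holds mTORC1 on the lysosome when amino acids are present. It had 3.83, 3.92 and 3.60 FPKM in WT and 0.311, 0.553 and 0.556 FPKM in KO. KO held 12.5% of the WT level, and the log2 ratio of -1.70 with a standard error of 0.10 passed in all of its 14 alternative fits (adjusted p = 0.000638, limma). On this scale, which shrinks changes of low genes, it stood at place 14 from the lowest of all tested genes. Over its alternative fits the value ran from -3.03 to -1.62, the lowest with voom on recovered fragments. The others that fell were Slc38a9 and Fnip2, a partner of folliculin, at -0.33 (adjusted p = 0.0235, limma). The call of Fnip2 held in 2 of 6 leave-one-out fits.

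Rptor, the gene of the mTORC1 subunit raptor, rose from 5.37 ± 0.332 to 7.79 ± 0.334 FPKM with a log2 ratio of 0.47 (adjusted p = 0.0125, limma), a call that held in 5 of 6 leave-one-out fits. The remaining genes that rose encode proteins known to hold mTORC1 back when amino acids are short. They were Sesn2, Sesn1 at 0.29, the GATOR1 subunit gene Nprl2 at 0.39, and Gatsl3, the arginine sensor CASTOR1, at 0.59 (limma, adjusted p = 0.0292, 0.0273 and 0.027 for the last 3), and these calls were kept in 1 to 4 of the 6 fits. Not all genes of this kind rose. The other GATOR1 subunit genes, Nprl3 at -0.13 and Depdc5 at 0.03, did not pass (limma, adjusted p = 0.282 and 0.788).

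Glutathione, which needs the cysteine that xCT supplies, had a list of 8 tested genes with 2 that rose and 2 that fell (median 0.08). The share called was 50%, against 9.55% of all tested genes. Chac2, the gene of an enzyme that degrades glutathione, had 48.0, 50.5 and 45.1 FPKM in WT and 29.3, 28.2 and 30.6 FPKM in KO. It fell by 0.68 on the log2 scale with a standard error of 0.060 (adjusted p = 0.00281, limma), a call that held in all 15 alternative fits. Gclc, the catalytic subunit gene of the rate-limiting ligase of glutathione synthesis, fell from 53.1 ± 5.04 to 37.0 ± 2.63 FPKM. The log2 ratio was -0.51 (adjusted p = 0.0178, limma), and the call held in 4 of 6 leave-one-out fits. Gclm, the gene of the regulatory partner, had 55.0 ± 0.479 and 57.5 ± 2.17 FPKM and did not pass (adjusted p = 0.418, limma). The synthetase gene Gss and the reductase gene Gsr rose by 0.25 and 0.20 (adjusted p = 0.0386 and 0.0393, limma), and in leave-one-out fits the call of Gss held in 1 of 6 and that of Gsr in 0 of 6.

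Together 16 of 73 tested genes of these 4 lists passed, or 21.9%, 10 higher and 6 lower, against 9.55% of all tested genes. Slc38a9, Sesn2 and Chac1 stand in more than 1 list. The lists were drawn up with results of these libraries known, so these shares describe them. The erythroid markers fell in the same libraries as Rragd, Chac2 and Gclc, and their part in these changes was not tested. Summed macrophage, neutrophil and endothelial markers, of which none passed, overlapped between the groups, at 76.9 to 141.0, 1309 to 1848 and 9.67 to 25.2 FPKM in WT and 78.1 to 130.1, 1604 to 2163 and 15.8 to 23.4 FPKM in KO.

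**Figure D5:**
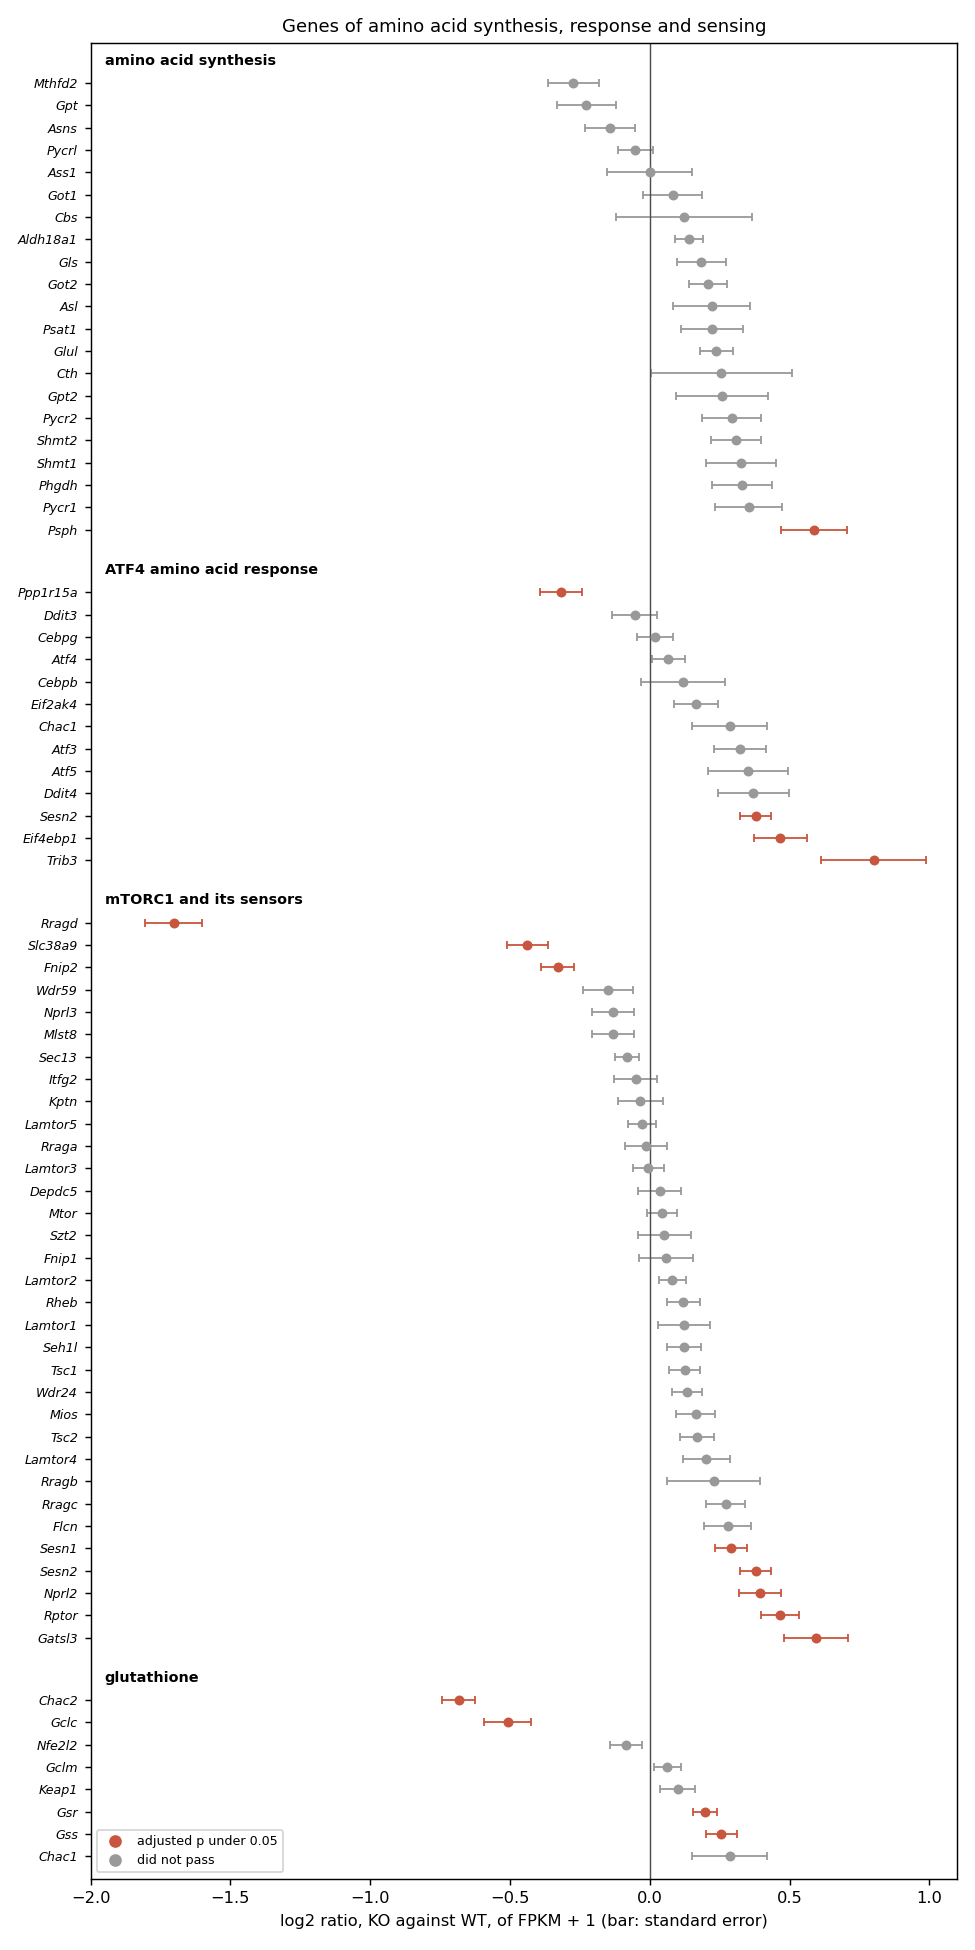
Log2 ratio of KO against WT on FPKM + 1, with its standard error, for genes of amino acid synthesis, the ATF4 response, mTORC1 sensing and glutathione; red marks an adjusted p under 0.05 (limma). Rragd at -1.70 lies apart, Chac2 at -0.68 and Gclc at -0.51 are the next lowest of these genes, and Trib3 at 0.80 is the highest.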

How the data were processed

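Per the labels' protocols, TRIzol was used to isolate total RNA for 6 fetal liver libraries, which were read from both ends. FPKM values by gene and library were deposited by the authors in 1 table. The aligner, counting program, genome build, annotation and use of strand were not given in the sources used here. Among 26022 lines after the header, 7 with spilled annotation text and 1 empty line were left out, and 24 gene names that had become dates were restored from their identifiers. Of the 26014 identifiers, 25935 are in GENCODE M21 and 23617 have the same positions there, so coordinates are given as GRCm38.

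In the deposited FPKM, low values are multiples of what a single fragment is worth. Given GENCODE M21 merged exon lengths, 94.0% to 99.1% of 6817 to 7182 low values checked per library came out whole within 0.02. The fragments recovered are estimates and were used for an alternative.

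Genes were tested with limma 3.58.1 under R 4.3.3 (lmFit, eBayes with a mean-variance trend), two-sided, on log2 of FPKM + 1, over 11142 genes with a mean of at least 1 FPKM. P-values were adjusted by Benjamini-Hochberg over all of these, with a threshold of 0.05. Fold changes on this scale understate the change of low genes. No exact permutation test is given, since for 1 gene and 3 libraries a group its smallest p is 0.1. The script was tested on simulated data. Python 3.11.15 read the table and drew the figures.

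The 10 members, the gene lists and the marker lists were chosen with earlier results of these data known. Named were all members, Gata1, the 5 genes most like Slc38a5, and the neighbours of Slc38a5 that passed or had the lowest value. Of each list other than the cell markers, every gene that passed and up to 4 with the smallest p were named. Other listed genes and neighbours were named after their values were seen.

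The main setting was varied with no filter or a mean of at least 5 FPKM, a pseudocount of 0.1, scaling by median-of-ratios, to TPM or without globin genes, library weights, a replicate block, voom on recovered fragments, and by leaving out each library. After the data were examined, voom with a mean of at least 10 fragments, and no filter with a pseudocount of 0.1, were added so that Slc7a11 could be tested, the former also for other carriers under 1 FPKM. Promoter windows are those of RefSeq for GRCm38.p6. Some values are not reported here.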

Additional observations from a re-analysis of the deposited data

How the results depend on the processing

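The log2 ratio of Slc38a5 kept its sign in all 15 alternatives, from -1.73 to -1.52. Scaling moved the median of all tested genes, 0.09 with FPKM as deposited, to 0.01 with median-of-ratios and to 0.20 with TPM scaling, so that a small change near these values depends on the scale. The split of 661 higher and 403 lower genes became 252 and 495 with median-of-ratios, 777 and 134 with TPM and 330 and 135 with non-globin scaling. WT replicate 1 had a summed FPKM of 491620, and the other libraries had 400545 to 421672. Scaling factors of WT replicate 1 were 0.86 with TPM and 0.867 with non-globin scaling, against 0.998 to 1.055 for the other libraries. The cause of the split, and the part of this library in it, was not tested. In all 1064 genes passed, against 513 with no filter, where more genes are tested, and 465 with non-globin scaling. Leaving out 1 library gave 173 to 1131 genes, with 173 without KO replicate 2, 224 without KO replicate 1, 422 without WT replicate 3 and 495 without KO replicate 3, where fewer samples are tested. The 2 calls among members other than Slc38a5 became 1 with median-of-ratios and 0 with non-globin scaling, where Slc38a2 and Slc43a1 kept their signs, and 0 to 3 with 1 library left out. The 3 calls among other transporters became 1 with no filter and 1 with non-globin scaling, and 0 to 2 with 1 library left out. The 16 calls in the lists of amino acid use became 7 with no filter, 10 with median-of-ratios and 6 with non-globin scaling, and 2 to 15 with 1 library left out. The share of Slc38a5 in the members' sum differed by -6.59 percentage points, and by -7.47 to -6.03 with 1 library left out.

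Signs that turned belong to members that passed in none of the fits. Slc6a9, at -0.05, was at 0.0697 with TPM scaling and ran from -0.178 to 0.0206 with 1 library left out, above 0 without WT replicate 1 and, at 0.0015, without WT replicate 3. Slc7a5, at 0.02, was at -0.0848 with median-of-ratios and -0.0212 with library weights, and ran from -0.126 without WT replicate 2 to 0.138 without WT replicate 1. Slc7a1, at 0.01, was at -0.0814 with median-of-ratios and -0.00025 with library weights, and ran from -0.0422 without KO replicate 3 to 0.042 without KO replicate 1. The cause was not tested.

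Replicate numbers do not pair the libraries by the check used, since deviations of libraries with the same number correlated at -0.10, 0.01 and 0.26, and 1 of 3 numbers matched itself best. With a replicate block 686 genes were higher and 386 lower, 1072 in all, and the adjusted p (limma) was 0.0464 for Slc38a2, 0.016 for Slc43a1 and 0.0716 for Slc1a5.

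For Slc7a11, no filter with a pseudocount of 0.1, added after the data were examined, gave a log2 ratio of 2.04 (adjusted p = 0.0217, limma). Depth limits what can be read of carriers with few fragments, at a level that depends on exon length.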
